A study of Homo sapiens with 6 samples.

Results

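LGALS1, 4 other galectin genes and LGALS3BP, a secreted glycoprotein that galectins bind, were followed in A549 cells in which an intron of SFTPB was targeted by CRISPR interference (CRISPRi). The 6 genes were found by symbol among 26485 gene symbols in the count files: LGALS1, LGALS3, LGALS3BP, LGALS4, LGALS8 and LGALS9. LGALS1 was chosen by its difference between these same libraries, and the others were taken as its family, so their values are given as a description without a test. A549 is an established human lung carcinoma cell line. All cells constitutively carried dCas9-KRAB, a Cas9 without cutting activity fused to a repressor domain, from a lentivirus under puromycin selection, and rat NKX2-1, a lung transcription factor, from a second lentivirus with sorting of GFP-positive cells. They received either a non-targeting guide (sgRNA control) or sgRNA #2, which targets the NKX2-1-binding site in the first intron of SFTPB. A single guide to that site was sequenced, and the carcinoma line holds NKX2-1 only as the introduced rat protein. Total RNA was sequenced in 3 libraries per group, with 6047554 to 7584611 reads counted on genes per library.

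SFTPB, which encodes surfactant protein B, was read first as the check of the labels. Its counts were 2683, 2877 and 3155 in the control libraries and 40, 42 and 49 with sgRNA #2, so every library fits its label. In CPM (read counts scaled to library size, with TMM factors) the means were 417 ± 9.92 and 6.72 ± 1.29 (SD, n = 3), a 62.4-fold lower level. Keratin genes KRT7, KRT8 and KRT18 lay between 497 and 2064 CPM in every library, while KRT19 had 0 to 4 counts and EPCAM 7.01 to 9.99 CPM. PTPRC and CD3E of leukocytes, COL1A2 and DCN of fibroblasts and CDH5 of endothelium had 0 counts in all libraries. Other genes of the same marker lists were detected, with CD68 at 402 to 480 counts and CD14 at 12 to 22 from the immune list, and COL1A1 at 36 to 58 and ACTA2 at 34 to 67 from the fibroblast and smooth muscle list.

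Galectins are small lectins that bind β-galactosides, above all the N-acetyllactosamine units on the branched sugars of cell-surface and matrix glycoproteins. Galectin-1 is a dimer of a protein with a single sugar-binding domain, galectin-3 joins such a domain to a flexible tail through which it assembles into larger complexes, and galectins 4, 8 and 9 carry a pair of linked domains. They are made without a signal peptide and act inside cells as well as outside them, where they cross-link glycoproteins, and galectins 3 and 8 also collect on broken lysosomes.

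The sequence that sgRNA #2 recognizes is shown first, because it is the only designed difference between the groups. It occurs once without a mismatch in hg38, on the minus strand of chr2:85668529-85668551 within SFTPB, 190 bases from the annotated start of the gene and in an intron of 2 of its 7 transcripts in GENCODE release 44. The remaining 5 transcripts do not span it. Beside it stand the sites with the longest partial match within 1000 bp of an annotated transcript start of each measurable gene. Capitals mark the bases, counted from the PAM, that are identical to the guide up to the first mismatch, in the guide itself as far as the longest of these matches. The last 3 letters are the PAM, the motif that Cas9 needs beside its target.
sgRNA #2 target in SFTPB: gggatgggagggGAACACCCagg
LGALS1: tggccaactgggggACACCCagg
LGALS8: ggagaatggcttGAACACCCagg
LGALS3BP: ggggcgtgacgactgCACCCagg
LGALS3: gctggggcagggggctACCCagg

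LGALS1 (ENSG00000100097.12) lies on the plus strand of chr22:37675636-37679802 in GRCh38 and overlaps no other annotated gene. Its counts were 641, 759 and 870 in the control libraries and 161, 145 and 151 with sgRNA #2. These are 102, 108 and 114 CPM against 22.9, 21.8 and 25.2 CPM. The lowest control library was thus far above the highest sgRNA #2 library, and the libraries of a group lay close together. The means were 108 ± 6.16 and 23.3 ± 1.72 CPM (SD, n = 3), so that 21.5% of the control level was left, a 4.65-fold lower level. On the log2 scale the edgeR estimate was −2.22 (SE 0.087, 95% interval −2.40 to −2.03). Within the same-numbered pairs of libraries the sgRNA #2 level was between 20.2% and 22.4% of the control level. In these bulk libraries, fewer cells that express a gene and less RNA per cell cannot be told apart.

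**Figure D1:**
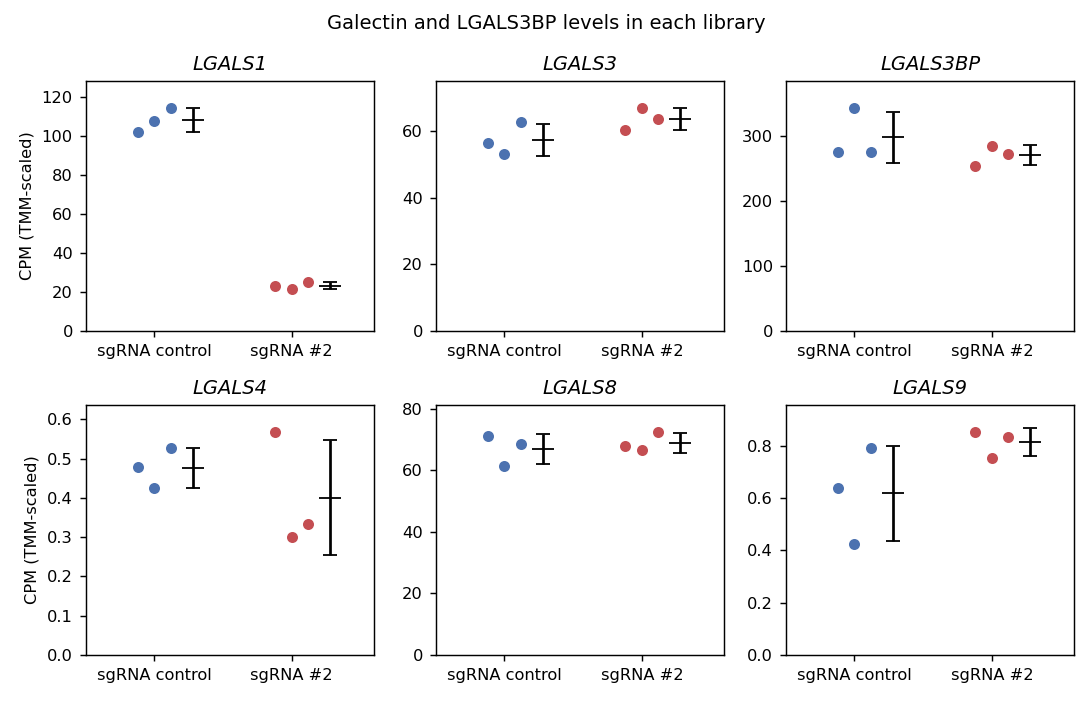
CPM (TMM-scaled, linear axes from 0) of each of the 6 genes in the 3 sgRNA control libraries (blue points) and the 3 sgRNA #2 libraries (red points), with the mean and SD in black. LGALS1 goes from 102 to 114 CPM down to 21.8 to 25.2 CPM, while the points of both groups overlap in the other 5 panels; LGALS4 and LGALS9 stay below 1 CPM.

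A total of 13356 genes reached 10 counts in 3 or more libraries. Of these, 92 were called lower (at least 2-fold, with a Benjamini-Hochberg adjusted p under 0.05 in edgeR's quasi-likelihood test), a background of 0.689%, and 4 were called higher, 0.0299%. Of the 6 genes 4 passed the count filter, and 1 of these, LGALS1, is among the called, which is how it was chosen. It held the 25th lowest log2 fold change of all genes tested. Its control level was above that of 91.3% of the 92 genes called lower. All 3 sgRNA #2 libraries lay below all 3 control libraries for LGALS1, as for 8.83% of all genes tested, and above them for none of the 4, against 6.77%.

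LGALS3 (chr14:55124110-55145423, plus strand), the gene of galectin-3, did not share that difference. Its counts were 353, 375 and 476 in the control and 424, 445 and 381 with sgRNA #2, or 56.2, 53.1 and 62.6 CPM against 60.3, 66.8 and 63.5 CPM. The groups overlapped, since the third control library lay above the first sgRNA #2 library. The means were 57.3 ± 4.82 and 63.5 ± 3.26 CPM (SD, n = 3), and the log2 fold change of 0.15 (SE 0.084) has an interval from −0.03 to 0.32. The sgRNA #2 level was 107%, 126% and 101% of the control in the 3 same-numbered pairs, and 19.7% of all genes tested were higher in every pair. In the edgeR fit with a replicate block the estimate stayed at 0.15 with a smaller SE of 0.066. LGALS3 was not past an adjusted p under 0.05 in that fit.

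LGALS3BP (chr17:78971238-78979947, minus strand) encodes a heavily glycosylated secreted protein that is bound by galectins 1 and 3 among others. The control libraries held 1732, 2428 and 2099 counts and the sgRNA #2 libraries 1788, 1898 and 1638. In CPM these are 276, 344 and 276 against 254, 285 and 273, so that one control library stood above the rest and the groups overlapped. The log2 fold change was −0.14 (SE 0.082, 95% interval −0.32 to 0.03), and without the second control library −0.03. The sgRNA #2 level was 92.2%, 82.9% and 98.9% of the control in the pairs, lower in each of them as for 19.8% of all genes. In the fit with a replicate block the estimate stayed at −0.14 with an SE of 0.045, and LGALS3BP was then among the 6.06% of all genes tested that were lower at an adjusted p under 0.05, which it was not without the block. No fold of 2 or more was involved, and as a gene chosen with these libraries known it is given as a description here too.

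LGALS8 (chr1:236518000-236552981, plus strand) encodes galectin-8, which marks damaged vacuoles for autophagy. Its counts were 446, 434 and 521 in the control and 477, 443 and 436 with sgRNA #2, giving means of 67.0 ± 4.94 and 69.0 ± 3.20 CPM (SD, n = 3). The libraries of both groups were intermingled, and the log2 fold change of 0.04 (SE 0.079) has an interval from −0.13 to 0.21. This interval does not reach the size seen for LGALS1. LGALS8 overlaps 4 genes annotated on the other strand, among them LGALS8-AS1 and HEATR1, and the strand setting of the counting is not given in the sources used here, so reads of LGALS8 and of these genes may be mixed.

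LGALS4 and LGALS9 were near the limit of detection, where 3 counts correspond to 0.396 to 0.496 CPM. LGALS4 (chr19:38801671-38812945, minus strand), the gene of an intestinal galectin, had 3, 3 and 4 counts in the control and 4, 2 and 2 with sgRNA #2. LGALS9 (chr17:27629798-27649560, plus strand), whose product binds TIM-3 on T cells, had 4, 3 and 6 against 6, 5 and 5 counts. Summed over a group, LGALS4 had 10 and 8 counts, or 0.476 CPM (95% exact Poisson interval 0.228 to 0.876) and 0.406 CPM (0.175 to 0.80). LGALS9 had 13 and 16 counts, or 0.619 CPM (0.330 to 1.06) and 0.812 CPM (0.464 to 1.32). The intervals, which cover counting error only, overlap widely, and a difference was not detectable at this depth. LGALS9 also has the near-identical copies LGALS9B and LGALS9C, both at 0 counts here, so reads that fit several copies may be missing from its count.

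Of 11 further galectin genes, LGALSL, which encodes a galectin-like protein, was the only one with enough reads for the test. Its counts were 120, 141 and 134 in the control and 137, 160 and 98 with sgRNA #2, with a log2 fold change of 0.08 (SE 0.138, edgeR adjusted p = 0.900). LGALS2 had 2 to 7 counts per library and LGALS12 at most 1. LGALS7, LGALS7B, LGALS9B, LGALS9C, LGALS13, LGALS14, LGALS16 and CLC had 0 counts in all 6 libraries.

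Levels per kilobase of exon use all annotated exons of a gene, expressed or not, and so compare genes only roughly. On this scale LGALS1 was at 101 ± 5.78 CPM per kilobase in the control (SD, n = 3) and LGALS3BP at 87.3 ± 11.5. The ranges of these 2 neighbours overlapped, with 95.7 to 107 for LGALS1 and 80.6 to 100.5 for LGALS3BP. LGALS3 followed at 26.1 ± 2.19 and LGALS8 at 7.08 ± 0.522, both clear of their neighbours by exon length. By coding length the control ranges of LGALS3 and LGALS8 overlapped, from 62.4 to 73.5 and from 57.1 to 66.0. The overlap of LGALS1 and LGALS3BP was absent by longest transcript, with 160 to 180 against 125 to 156. It was absent by coding length too, with 185 to 207 against 140 to 174. By exon length LGALS4 and LGALS9 lay at 0.214 and 0.108 CPM per kilobase, an order that turned when coding length was used. With sgRNA #2 the order was LGALS3BP at 79.1 ± 4.52, LGALS3 at 28.9 ± 1.48, LGALS1 at 21.8 ± 1.61 and LGALS8 at 7.29 ± 0.339 CPM per kilobase. LGALS1 was thus the highest of the 6 by its mean in the control and the third with sgRNA #2. By longest transcript the ranges of LGALS1 and LGALS3 with sgRNA #2 overlapped, from 34.2 to 39.5 and from 34.8 to 38.5. By coding length LGALS1, at 42.2 CPM per kilobase, also came below the 64.1 of LGALS8. Among 13077 tested genes with a length, LGALS1 stood above 98.1% in the control and above 81.3% with sgRNA #2, both by exon length.

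The make-up of the galectin transcripts moved with LGALS1. Over 16 galectin genes (LGALS3BP, which is no lectin, left out), LGALS1 supplied between 71.0% and 73.1% of the summed CPM per kilobase in the control libraries. With sgRNA #2 its share was 34.5%, 31.6% and 36.1%. LGALS3 went from 18.5 ± 0.881% to 45.1 ± 1.69% of the sum (SD, n = 3), while its own level per library overlapped between the groups. LGALS8 went from 5.05 ± 0.460% to 11.4 ± 0.452%. These shares depend on the length used. By coding length LGALS1 went from 53.8% to 19.1%, and with sgRNA #2 LGALS3 was at 33.8% and LGALS8 at 29.1%. By longest transcript LGALS1 went from 77.1% to 40.3%. Not scaled by length, the LGALS1 share of galectin reads was 42.7 ± 1.68% and 13.1 ± 0.987%. On that scale LGALS8 was above LGALS3, at 26.5% against 22.6% in the control and 38.9% against 35.8% with sgRNA #2. The summed galectin level was 253 ± 11 CPM in the control and 178 ± 4.24 CPM with sgRNA #2. Without LGALS1 the sums were 145 ± 7.72 and 154 ± 4.48 CPM, and the libraries ran from 136 to 151 and from 150 to 159 CPM. The other galectins therefore differed by far less than LGALS1, with their groups just overlapping. The interval of a share depends on all members of the sum, so the shares are no separate measure of LGALS3 or LGALS8.

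**Figure D2:**
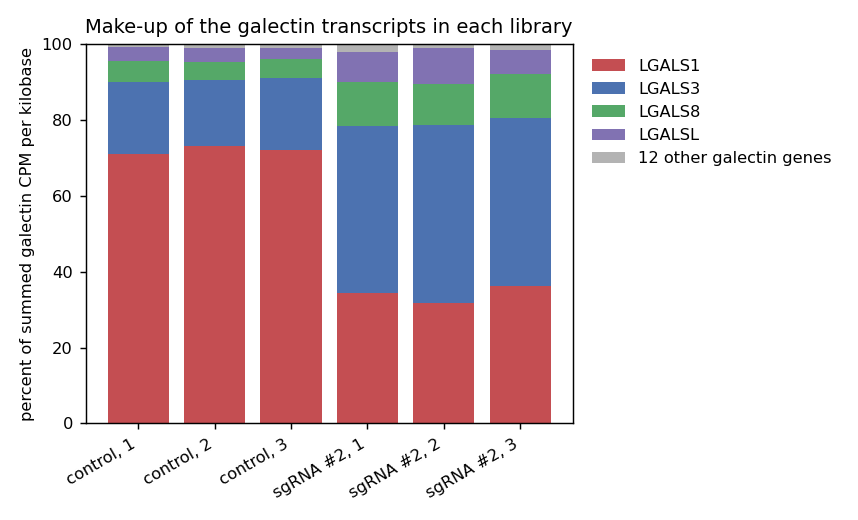
Share of each galectin in the summed CPM per kilobase of exon over 16 galectin genes (vertical axis, percent), one bar per library. LGALS1 (red) makes up 71.0 to 73.1% of the bar in the 3 control libraries and 31.6 to 36.1% in the 3 sgRNA #2 libraries. On this scale LGALS3 (blue) fills most of the rest.

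Genes that work with galectins were then read from 4 lists. The lists were chosen with earlier results of these data known, so their counts are a description and no evidence for a theme. Over all genes tested, 2.22% passed an adjusted p under 0.05 in the lower direction and 0.464% in the higher direction. In the fit with a replicate block these shares were 6.06% and 3.97%. At an unadjusted p under 0.05 in edgeR's test without the block, 908 of the 13356 genes were lower and 581 higher. The median log2 fold change was 0.00 over all genes, and 95.2% of the genes lay within 0.5 of 0.

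Surface and matrix glycoproteins that galectins bind form the first list, of which 29 of 34 genes were tested. In edgeR's quasi-likelihood test 5 of them (17.2%) fell at an adjusted p under 0.05 and 0 rose, with 8 lower and 1 higher at an unadjusted p under 0.05. DESeq2 gave 6 lower and 0 higher. The list median was −0.04. BSG, which encodes basigin, a chaperone of lactate transporters, had 3117, 3744 and 3969 counts in the control and 1727, 1700 and 1617 with sgRNA #2. It fell from 516 ± 17.7 to 257 ± 11.9 CPM (log2 fold change −1.01, SE 0.064, edgeR adjusted p = 1.19e-08) and was the only gene of the list past the 2-fold cut-off. COL4A1, a basement membrane collagen chain, fell by 0.81 on the log2 scale (SE 0.101, edgeR adjusted p = 6.69e-05), from 108 ± 10.9 to 61.3 ± 9.49 CPM. LAMB1, a laminin chain, fell by 0.31 (edgeR adjusted p = 0.00984). The remaining pair, named after the values were seen, were MCAM and ITGB4. MCAM, an adhesion molecule, fell by 0.56 (edgeR adjusted p = 0.0175). ITGB4, an integrin chain of hemidesmosomes, fell by 0.58 (edgeR adjusted p = 0.0438). The groups overlapped for ITGB4, with 41.2, 67.6 and 49.8 CPM in the control and 30.9, 41.8 and 34.0 CPM with sgRNA #2. The count of 5 dropped to 2 without the first sgRNA #2 library and to 3 without either the second sgRNA #2 or the third control library. The genes with the highest level in the list, FN1 of the matrix and CEACAM6, an adhesion protein, were at 0.14 and 0.09 on the log2 scale, with edgeR adjusted p of 0.687 and 0.714. With the replicate block 8 genes were lower and 2 higher. The added lower genes were MUC1, a mucin, at −0.61 and the integrin chains ITGA3 and ITGB1 at −0.24 and −0.16, which had edgeR adjusted p of 0.0576, 0.0658 and 0.272 without the block. The higher genes were FN1 (edgeR adjusted p = 0.0172 with the block) and TFRC, the transferrin receptor, at 0.22.

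N-glycan branching and LacNAc synthesis, which build the sugars that galectins read, were tested by 22 of 25 genes. MGAT4B, a branching enzyme, fell by 0.33 (SE 0.067, edgeR adjusted p = 0.00988), from 136 ± 3.95 to 108 ± 5.92 CPM, a call that was lost without the third sgRNA #2 library. It was the only gene of the list to pass, and 0 rose. By edgeR 1 was lower and 0 were higher at an unadjusted p under 0.05, and DESeq2 called 1 lower and 0 higher. B4GALT1, which adds the galactose, was at 0.01 and MGAT5, the enzyme that starts the branch preferred by galectin-3, at 0.04 on the log2 scale. The list median was −0.01.

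Genes of the response to damaged lysosomes, in which galectins 3, 8 and 9 take part, were tested for 22 of 23. SQSTM1, an autophagy receptor, fell by 0.52 (SE 0.065, edgeR adjusted p = 7.25e-05), from 1065 ± 30.1 to 742 ± 44.3 CPM, and no other gene of the list passed in either direction by edgeR. At an unadjusted p under 0.05, 3 were lower and 1 was higher, and DESeq2 called 1 lower and 0 higher. TRIM16, a ubiquitin ligase that works with galectin-3 on damaged membranes, was at −0.21, with an edgeR adjusted p of 0.102 and of 6.55e-05 with the replicate block. TFEB, a regulator of lysosomal genes, was at −0.87 with 19 to 49 counts per library (edgeR adjusted p = 0.0544, with the replicate block 0.00312). With the block PRKAA1, a catalytic subunit of the energy sensor AMPK, was higher at 0.17 (edgeR adjusted p = 0.00569).

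Intracellular partners of galectin-1 and galectin-3, such as the splicing factor GEMIN4, were all measured. Of these 11 genes 0 passed in edgeR, 0 had an unadjusted p under 0.05, and 0 passed in DESeq2 or with the replicate block. CTNNB1, or β-catenin, was at −0.11 and GEMIN4 at −0.00 on the log2 scale, and the list ran from −0.28 to 0.06. Epithelial markers were not level between the groups: of 6 tested, CDH1, or E-cadherin, fell by 0.34 (edgeR adjusted p = 0.00728) and ELF3, an epithelial transcription factor, by 0.32 (edgeR adjusted p = 0.0288). The summed level of the 7 epithelial markers ran from 3774 to 4754 CPM in the control and from 3533 to 4330 CPM with sgRNA #2, so the sums overlapped. Their part in the galectin results was not tested.

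**Figure D3:**
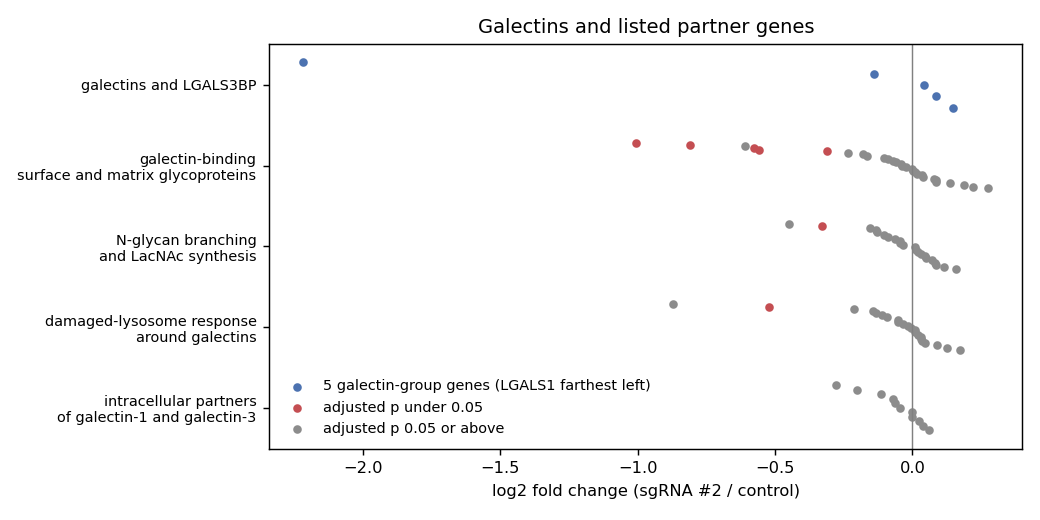
Log2 fold change of sgRNA #2 over control (horizontal axis) for the 4 measurable genes and LGALSL (blue, top) and for the tested genes of 4 lists, 1 point per gene, red where the edgeR adjusted p was under 0.05. LGALS1 lies alone at −2.22, the other blue points lie between −0.14 and 0.15, and the 7 red points lie between −1.01 and −0.31.

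The genes around LGALS1 on chromosome 22 did not share its difference. Within 250 kb of its annotated start the files hold 18 genes, of which 13 were tested. By edgeR 0 passed an adjusted p under 0.05, 1 had an unadjusted p under 0.05, and DESeq2 called 0. Their log2 fold changes ran from −0.36 to 0.28 with a median of −0.01. PDXP, a phosphatase gene 16.9 kb to one side, was at 0.01 (SE 0.086, edgeR adjusted p = 0.990). NOL12, a nucleolar protein gene 6.04 kb to the other side, was at 0.28 (SE 0.151, edgeR adjusted p = 0.548). CARD10, a signalling scaffold gene 156 kb away, was at −0.36 (SE 0.109), with an edgeR adjusted p of 0.115, and of 0.00313 with the replicate block, under which it was the 1 neighbour to pass. LGALS2, another galectin gene 93.0 kb away, had too few counts for the test. Widened to 500 kb, 0 of 20 tested genes passed in edgeR and 1 had an unadjusted p under 0.05.

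**Figure D4:**
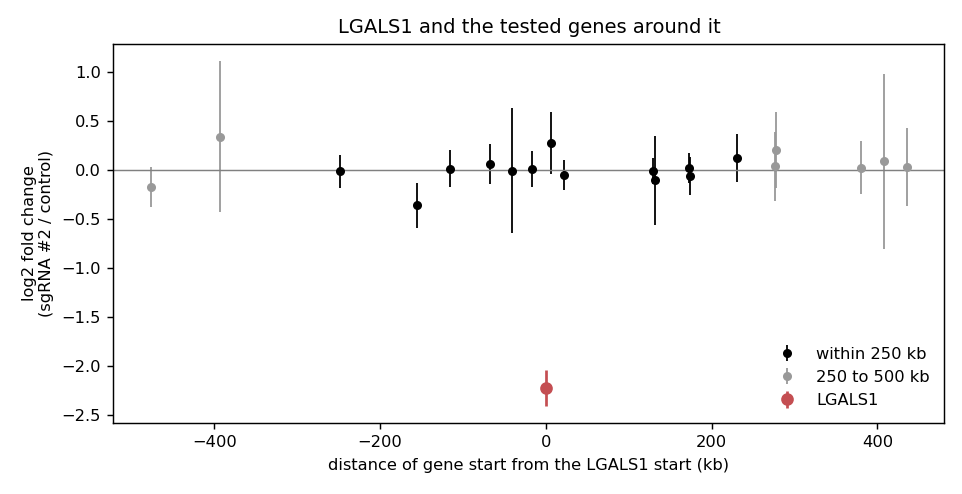
Log2 fold change with its 95% interval (vertical axis) of LGALS1 (red) and the 20 tested genes whose starts lie within 500 kb, against the distance of their start from the LGALS1 start (horizontal axis, kb). LGALS1 is at −2.22, and the points within 250 kb (black) lie between −0.36 and 0.28.

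The sites printed above were set beside those of other genes. The LGALS1 site (chr22:37676006-37676028, plus strand) matched the guide over the 6 bases next to the PAM, with 8 mismatches in the 20 bases as a whole. It lies 370 bases from the annotated start of the gene, in an intron of 5 of 7 transcripts and outside the other 2, and 108 bases before one annotated transcript start. A match at least as long was found near the starts of 24.0% of 13077 tested genes. The LGALS8 site (chr1:236544035-236544057, minus strand) matched over 8 bases, with 9 mismatches, in an intron of 15 of 28 transcripts and 750 bases from the nearest transcript start used. A match that long was found for 1.51% of the genes. This site lies 26035 bases from the annotated start of LGALS8, against 370 bases for the LGALS1 site and its gene. LGALS8 also has more annotated transcripts, so the sequence searched may differ in extent. On the log2 scale LGALS8 was at 0.04 and LGALS1 at −2.22, and a part of the matches in this was not tested. For LGALS3BP (chr17:78974847-78974869, plus strand, exonic in 1 of 19 transcripts and intronic in 16) the match was 5 bases, and 76.3% of the genes had one as long. For LGALS3 (chr14:55138117-55138139, plus strand, exonic in all 7 transcripts) it was 4 bases, as for 95.7%. Over the whole 20 bases, the fewest mismatches at any site in these windows were 8 for LGALS1, and 83.5% of the genes had 8 or fewer. They were 7 for LGALS3 (47.0%) and 6 for LGALS8 and LGALS3BP (15.0% each). Of all 13077 genes compared 92 were called lower (0.704%). Of the 2942 genes with a match of 6 or 7 bases, which include LGALS1, 31 were (1.05%). Of the 197 with at least 8, which include LGALS8 and SFTPB, 16 were (8.12%). Binding of dCas9-KRAB at any of these sites was not tested.

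**Figure D5:**
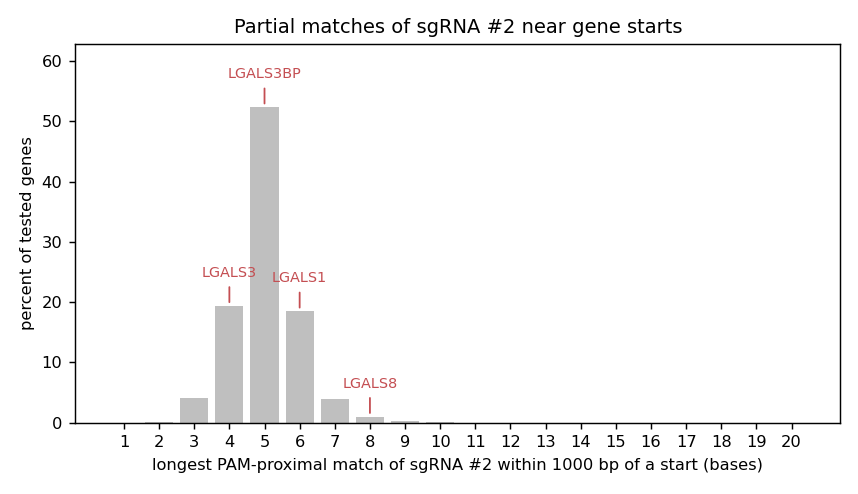
Percent of 13077 tested genes (vertical axis) by the longest run of bases next to the PAM that matches sgRNA #2 within 1000 bp of an annotated start (horizontal axis). LGALS3, LGALS3BP, LGALS1 and LGALS8 stand at 4, 5, 6 and 8 bases, and SFTPB itself is the 1 gene at 20.

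The genes whose pattern over the 6 libraries was most like that of LGALS1 were sought by the root mean square distance between log2 CPM values centred on each gene's mean. GDF5, the gene of a growth factor of the BMP family, came first at a distance of 0.10, from 11, 15 and 16 counts in the control and 1 count in each sgRNA #2 library. Those 3 counts against 42 are 7.61% of the control level, with an exact 95% counting interval from 1.51% to 23.8%, so its fall is poorly measured. The prior count of 2 in the log2 CPM values shrinks the fall of a gene with so few counts. ECHS1, a mitochondrial enzyme of fatty acid oxidation, was at 0.14 and fell from 148 ± 6.58 to 38.4 ± 2.15 CPM. TNFRSF19, a receptor of the TNF family, was at 0.14, CEP164, a protein of the centriole, at 0.15 and the receptor NOTCH3 at 0.18. These patterns are made of the same libraries and mainly of the step between the groups, so the correlations with LGALS1 (Pearson's r from 0.99 to 1.00 over 6 libraries) describe that step. The 5 genes lie on chromosomes 20, 10, 13, 11 and 19, none of them beside LGALS1, and no galectin is among them.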

How the data were processed

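RNA from 6 A549 cultures was sequenced by the authors and deposited as raw read counts per gene symbol. The submitters' processing notes name hg38, Bowtie2 2.3.3.1, Trim Galore, FastQC, SAMtools, Picard and HTSeq; the annotation and strand setting are not given in the sources used here. Rows that name no gene stayed out of the library sizes: 19.7 to 21.1% of reads fell in no feature and 2.61 to 2.75% were ambiguous. The study calls its triplicates biologically independent. Genes that reached 10 counts in 3 or more libraries were fitted with edgeR 4.0.16 (R 4.3.3; TMM, quasi-likelihood test, Benjamini-Hochberg adjustment), called at an adjusted p under 0.05 and an absolute log2 fold change of at least 1, and read in CPM. Log2 CPM for the likeness used a prior count of 2. On simulated counts of 13250 genes for this comparison, 200 of 200 changed genes were recovered with 2 false calls. The changed genes were drawn from well-counted genes only and given changes above the cut-off, without any replicate pairing. This checks that the fit runs as meant and does not measure its sensitivity or error rate in the real libraries. DESeq2 1.42.0 was an alternative. Positions and lengths came from GENCODE release 44 for 24545 of 26485 symbols, 1384 of them through a RefSeq synonym. The guide sequence came from the study's supplementary data and was compared with hg38 on both strands. The study also reports a CRISPOR off-target search for this guide, and the sites predicted there were not used here.

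Same-numbered libraries deviated together from their group means (correlations 0.269, 0.287 and 0.291), so the replicate block was fitted as an alternative. All crossed pairs were below 0, which largely follows from the centring on group means and is no separate evidence of pairing. The genes and lists were chosen with earlier results of these data known. Named were the 6 genes, SFTPB, in each list up to 3 genes of smallest p per direction among those past an adjusted p of 0.05 and the 2 of highest CPM, the 5 genes nearest LGALS1 in pattern, its nearest tested neighbour on each side and any neighbour past a rule. Other genes are named where a count was small or where only the replicate block gave a call, after their values were seen.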

Additional observations from a re-analysis of the deposited data

How the results depend on the processing

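LGALS1 stayed past the rule in all 13 alternatives, with log2 fold changes from −2.27 to −2.17. Since LGALS1 was chosen by this difference and every alternative reuses the same libraries, this describes the estimate and is no separate support. LGALS3 stayed between 0.09 and 0.22 and LGALS3BP between −0.20 and −0.03, while LGALS8 crossed 0, between −0.02 and 0.08. Called genes numbered 96 and fell to 63 with at least 10 counts in every library and to 21 under DESeq2's test of a change above 2-fold, which asks for a larger change. The smallest and largest counts with 1 library left out were 65 and 94. Genes at an adjusted p under 0.05 alone numbered 359, against 583 with no count filter, 21 in DESeq2's test above 2-fold and 1339 with the replicate block. Without 1 library they ran from 224 (no sgRNA #2 replicate 1) to 327, with 233 without control replicate 2. The 7 calls in the 4 galectin lists became 11 with no count filter, 0 in DESeq2's test above 2-fold and 15 with the replicate block. Leaving out a library gave 4 (no sgRNA #2 replicate 1) to 7. In the fits with the replicate block and with no count filter the prior degrees of freedom were estimated as infinite, so their p-values rest on the dispersion trend. The replicate block called 1 neighbour of LGALS1 in place of 0. Apart from the genes already given and KRT8 among the markers, it changed no other call in the lists. Depth limits LGALS4 and LGALS9, and the length used moves levels per kilobase. The DESeq2 count of neighbours was added after seeing the data.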
